A study of Homo sapiens with 6 samples.

Results

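Homologous recombination and Fanconi repair genes in PC-3 prostate cancer cells are represented here by 38 genes, chosen by name as known factors of these pathways out of 19491 genes in the deposited tables. All 38 were found by name and all had enough reads to be compared. Homologous recombination repairs a broken chromosome by copying from the sister chromatid: the broken ends are sensed and trimmed back to single strands, these pair with the sister in a step that needs BRCA2, and the joined molecules are later taken apart. The Fanconi pathway opens DNA crosslinks that join both strands and then uses the same recombination factors. Sister chromatids exist only after replication, and many of these genes are known to be most highly transcribed in S and G2 phase, and several are known targets of the E2F transcription factors.

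PC-3 is an established human prostate cancer line of epithelial origin. The cells were left untreated (control) or were given 1 mM GPNA (L-gamma-glutamyl-p-nitroanilide) or 10 mM BenSer (benzylserine) for 48 h, and total RNA was sequenced. Both compounds are inhibitors of ASCT2 (SLC1A5), a glutamine transporter, and their doses differ. The study states that BenSer appears to act beyond ASCT2 too, and cites inhibition of the amino acid transporter LAT1 (SLC7A5) in oocytes. Their effects on the repair genes were set side by side. The parts of dose and of other targets in the differences between the compounds were not tested. Each group holds 2 labelled libraries of 23077986 to 32178154 reads, and the unit is CPM, the reads of a gene for every 1e6 reads of its library.

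Libraries 1 and 2 of a group were close to repeat draws of reads from the same material (chi-square per degree of freedom 1.04 to 1.06 within groups and 5.33 to 20.6 across them). The study's methods speak of replicates but do not say whether these were separate cultures. Each pair was treated as a single sample, so no p-value is given for a treatment and no difference between groups has a replicate check. Differences are given as the log2 of mean CPM plus 1, with a 95% Clopper-Pearson interval on the merged reads, given in parentheses, that covers counting error only. In RNA from whole cultures, fewer cells that express a gene and less of its RNA per cell cannot be told apart. The epithelial markers KRT8, KRT18, KRT19, EPCAM and CDH1 were all present, at 87.3 to 669 CPM in the control. Of the androgen-driven prostate genes, TMPRSS2 was listed at 16.5 CPM in the control, and KLK2 and KLK3 were not in the tables used here. Of the markers of other cell types, 1 of 3 for fibroblasts was listed, COL1A1 at 3.65 to 6.07 CPM, and none for immune or endothelial cells. With BenSer, TMPRSS2 was higher by 0.52 on the log2 scale, and COL1A1 had -0.27 with BenSer and -0.48 with GPNA. The part of these markers in the values of the repair genes was not tested.

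With BenSer, the repair genes lay lower as a group. Their summed level was 956 and 939 CPM in the untreated libraries, 899 and 909.7 in the GPNA libraries and 737 and 727 in the BenSer libraries, so that both BenSer libraries were lowest and the 3 groups did not overlap. Of the 38 genes, 37 were lower with BenSer than in the control by sign, where 55.4% of the 18976 genes tested were. In 33 of them both BenSer libraries lay below both control libraries, which held for 37.5% of all genes, and in the same number the counting interval was wholly below 0, against 25.8% of all genes. All the repair genes had at least 133 reads in the control, and among the 12334 genes with a mean of 50 reads or more in a group the shares were 55.3%, 42.6% and 34.0%. The median log2 difference was -0.34 over the repair genes and -0.028 over all genes, and the median repair gene stood at 77.9% of its control level. The range ran from -0.89 for FANCE to 0.045 for ATM.

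The differences with BenSer were mostly moderate. At least 1.5-fold lower (a log2 difference of 0.585 or more) were 5 of the 38 genes, FANCE, CLSPN, BRIP1, BLM and ATRIP, against 1.58% of all genes and 2.23% of those with at least 50 reads, and 0 were as much higher (1.96% of all genes). A further group stood just short of that, led by FANCA at -0.57, FANCD2 at -0.56 and BRCA1 at -0.56. The pseudocount of 1 decides part of this: with 0.5, 0.1 or none, FANCA and RMI2 were past 1.5-fold too, 7 genes in all, against 2.59%, 7.36% and 9.39% of all genes, and with 0.1 or none FANCE was past 2-fold, against 1.30% and 3.15%. Without a difference beyond counting error were ATM, RAD50, RAD51B, FANCC and FANCF, whose intervals all included 0.

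With GPNA, the values lay closer to the control. By sign 29 were lower and 9 higher than in the control, where 56.7% of the 18828 genes tested were lower. Both GPNA libraries lay below both control libraries in 22 genes (34.4% of all genes) and above them in 5 (22.4% of all genes). With libraries scaled by TMM factors, which set aside genes of extreme ratio, these counts were 15 and 6, against 5198 and 5254 genes of all. CHEK1, MRE11A, RBBP8, EXO1, PALB2, FANCM and FANCD2 then overlapped the control. The counting interval was wholly below 0 in 16 genes, against 20.1% of all genes, and wholly above 0 in ATM, NBN and BRCA2, against 9.78% of all genes. At least 1.5-fold lower were 0 of the 38 genes, where 0.0637% of all genes were, and 0 were as much higher (0.340% of all genes). Among genes with at least 50 reads, 61.6% were lower by sign, 42.3% lay below the control, 29.1% had an interval below 0 and 0.0917% were 1.5-fold lower. The median was -0.10, against -0.028 over all genes, or -0.062 against 0.0022 with TMM factors, and the range ran from -0.27 for RMI2 to 0.22 for RAD51B.

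The control libraries enter both comparisons, so the values of a gene with GPNA and with BenSer are not independent. In 21 genes both treated groups lay below the control with no overlap, and in 18 of these the BenSer libraries also lay below the GPNA libraries. Both counts depend on the scaling. The 21 include CHEK1, MRE11A, RBBP8, EXO1, PALB2, FANCM and FANCD2, whose GPNA libraries overlapped the control with TMM factors. Another 12 genes lay below the control by this rule with BenSer and not with GPNA, among them BRCA1, BARD1, ATR, CHEK2, RAD54B and FANCG. NBN and BRCA2 lay above the control with GPNA and below it with BenSer. The share of all genes with each of these joint patterns was not counted. The counts therefore describe the repair genes only and are not set against a background.

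**Figure D1:**
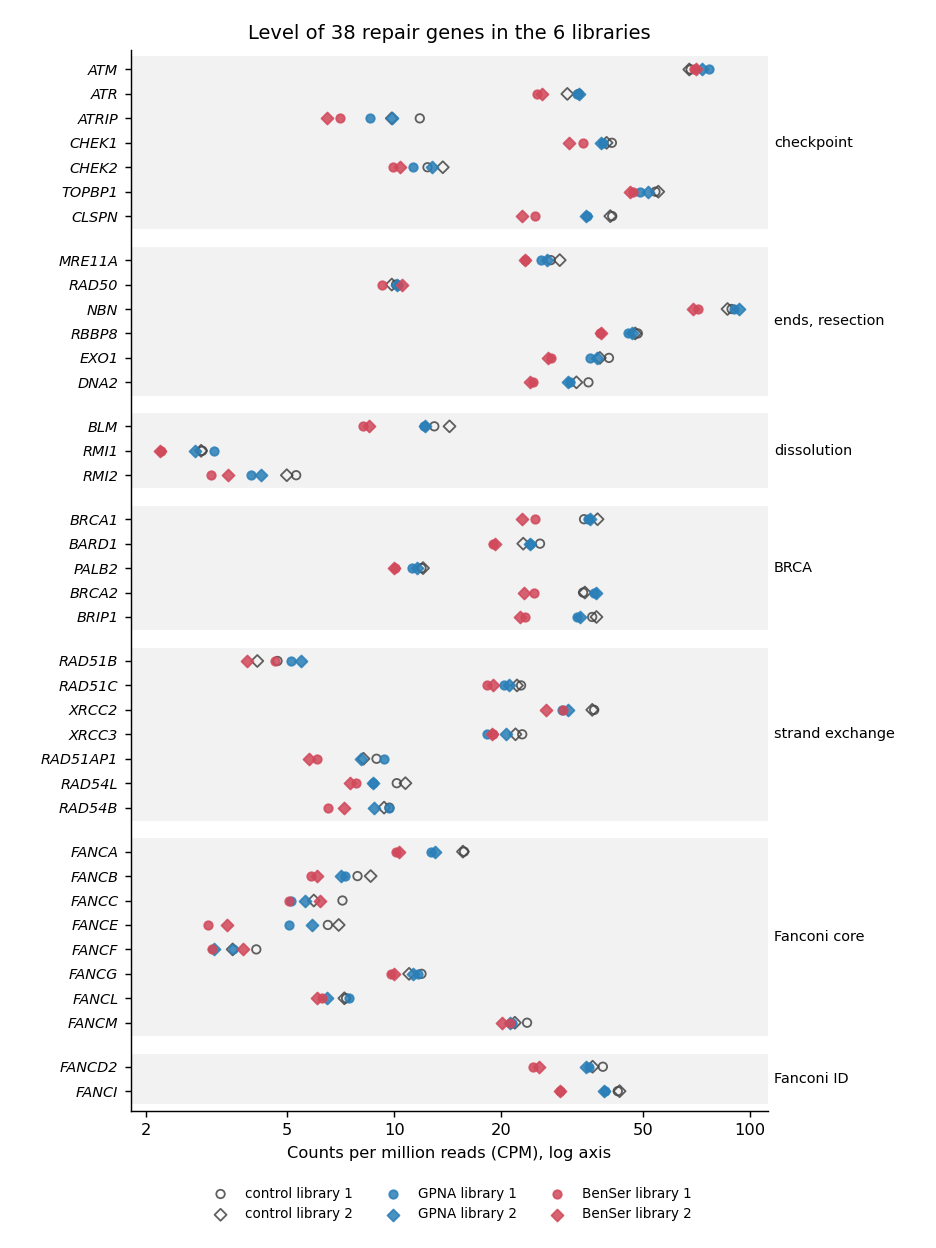
Level of each of the 38 repair genes in the 6 libraries, in CPM on a log axis, with open symbols for the control, blue for GPNA and red for BenSer, circles for library 1 and diamonds for library 2, grouped by role. In 33 genes both red symbols stand to the left of both open symbols, while the blue symbols mostly stand close to the open ones. Levels are not scaled by gene length, so genes are compared with themselves and not with each other.

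**Figure D2:**
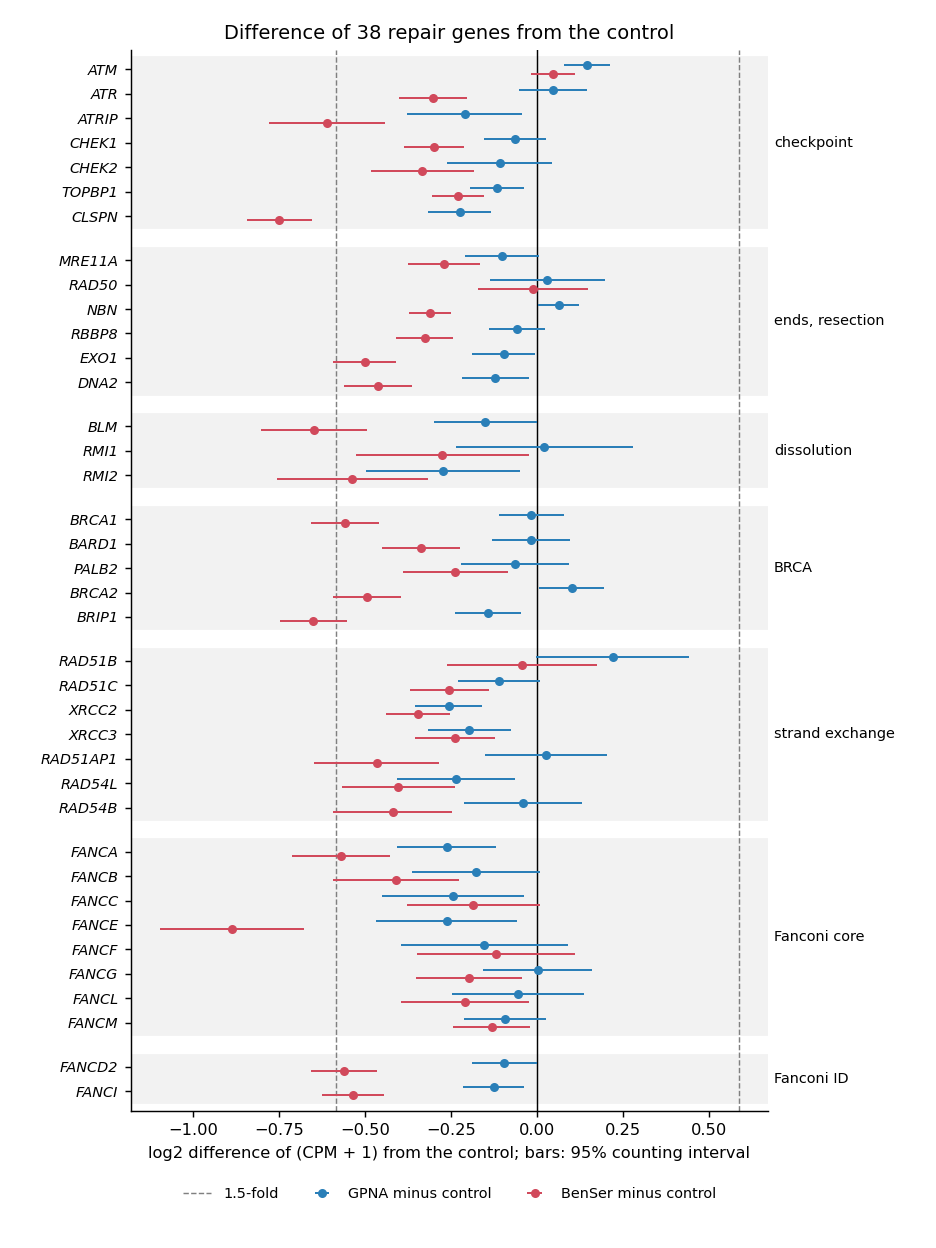
Log2 difference of mean CPM plus 1 from the control for each repair gene, blue for GPNA and red for BenSer, with bars for the 95% counting interval and dashed lines at 1.5-fold. FANCE, CLSPN, BRIP1, BLM and ATRIP pass the dashed line with BenSer, and no gene passes it with GPNA.

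Promoters of the repair genes were looked at because the genes lay lower together with BenSer and E2F sites are known in several of them. From its RNA sequencing, the study itself reports gene sets with E2F motifs enriched in the control against either compound. It reports the same for cell cycle gene sets. RefSeq sequences around the start of transcription (GRCh38.p14, 250 bases before to 50 after it) were matched by symbol for 33 of the 38 genes, in 45 windows since some genes have several starts. NBN, DNA2, RMI2, RAD54B and FANCI had no entry. The E2F letters searched were TTTCCCGC, TTTGGCGC, TTTCGCGC and TTTGCCGC on both strands. They occurred in 8 of the 45 windows (17.8%), each of a different gene, and in 1164 of all 35116 windows (3.31%). The genes were CLSPN, TOPBP1, EXO1, RMI1, XRCC2, FANCA, FANCC and FANCD2. The CCAAT box (CCAAT) occurred in 48.9% of the repair gene windows and 34.6% of all windows, and the CHR letters TTTGAA or TTCGAA in 6.67% and 16.4%. No E2F match overlapped a match to the other letters. The background was all windows, whether or not the gene is expressed in PC-3. Shares among windows of expressed genes were not counted.

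The 8 genes with an E2F match had a median log2 difference with BenSer of -0.42, ranging from -0.75 to -0.19, and the 25 genes with a window and no match had -0.30, ranging from -0.89 to 0.045. With GPNA the medians were -0.17 and -0.066. The ranges of the groups overlapped with both compounds, and FANCE, BLM, BRIP1 and ATRIP, all 1.5-fold lower with BenSer, had none of the E2F letters in their windows. A match is a run of letters and not a measured site.

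For the 6 role groups with a match, the promoter of the matched gene with the lowest value with BenSer is printed here from 200 bases before to 30 after the start of transcription, 5′ to 3′ on the strand of the gene, with the E2F match in capitals. The windows are chr1:35769949-35770178 for CLSPN (minus strand), chr1:241848004-241848233 for EXO1 (plus), chr9:83980605-83980834 for RMI1 (plus), chr7:152676112-152676341 for XRCC2 (minus), chr16:89816618-89816847 for FANCA (minus) and chr3:10026237-10026466 for FANCD2 (plus), all in GRCh38.p14.
CLSPN: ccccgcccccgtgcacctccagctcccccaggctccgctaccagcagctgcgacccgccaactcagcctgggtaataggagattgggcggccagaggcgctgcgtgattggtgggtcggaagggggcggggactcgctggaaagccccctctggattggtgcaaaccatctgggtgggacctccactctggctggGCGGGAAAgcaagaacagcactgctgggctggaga
EXO1: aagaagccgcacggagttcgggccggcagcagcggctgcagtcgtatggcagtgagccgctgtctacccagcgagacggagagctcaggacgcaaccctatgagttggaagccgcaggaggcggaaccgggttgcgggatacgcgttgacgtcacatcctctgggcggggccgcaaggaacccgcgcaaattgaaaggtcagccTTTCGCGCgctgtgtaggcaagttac
RMI1: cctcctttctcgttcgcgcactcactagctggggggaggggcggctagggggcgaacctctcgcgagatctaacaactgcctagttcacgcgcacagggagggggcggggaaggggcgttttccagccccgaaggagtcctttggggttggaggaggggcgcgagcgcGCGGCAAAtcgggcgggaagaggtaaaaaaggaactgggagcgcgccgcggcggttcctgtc
XRCC2: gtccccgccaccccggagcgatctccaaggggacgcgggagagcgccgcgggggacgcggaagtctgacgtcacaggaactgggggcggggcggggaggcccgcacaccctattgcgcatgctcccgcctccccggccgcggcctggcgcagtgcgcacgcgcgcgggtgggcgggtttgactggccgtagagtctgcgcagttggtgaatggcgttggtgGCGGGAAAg
FANCA: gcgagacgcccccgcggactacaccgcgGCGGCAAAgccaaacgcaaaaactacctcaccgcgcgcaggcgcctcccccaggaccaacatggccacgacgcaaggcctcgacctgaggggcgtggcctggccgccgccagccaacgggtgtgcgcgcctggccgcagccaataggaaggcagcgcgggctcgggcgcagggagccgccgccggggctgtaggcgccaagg
FANCD2: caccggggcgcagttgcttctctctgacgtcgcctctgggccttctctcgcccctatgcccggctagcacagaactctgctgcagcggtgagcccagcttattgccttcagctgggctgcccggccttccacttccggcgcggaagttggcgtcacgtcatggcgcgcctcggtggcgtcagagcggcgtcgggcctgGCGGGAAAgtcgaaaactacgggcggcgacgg
The capitals read TTTCCCGC on the opposite strand in CLSPN, XRCC2 and FANCD2, TTTGCCGC on the opposite strand in RMI1 and FANCA, and TTTCGCGC on the strand of the gene in EXO1. In CLSPN, EXO1, XRCC2 and FANCD2 the match lies within 30 bases of the start of transcription, from its first base at -5, 5, 22 and -2.

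The checkpoint genes sense damage and stalled forks and halt the cycle. ATM is the kinase that answers to double-strand breaks, ATR with its partner ATRIP answers to single-stranded DNA, TOPBP1 activates ATR, and CLSPN (Claspin) holds CHEK1 in place for ATR to phosphorylate. With BenSer 6 of the 7 genes lay below the control with no overlap and ATM lay above it (37.5% and 28.5% of all genes). The median of the group was -0.30. With GPNA 3 lay below and ATM above (34.4% and 22.4% of all genes), with a median of -0.11. Of genes with at least 50 reads, 42.3% lay below with GPNA, so the count of 3 is near the background.

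CLSPN (ENSG00000092853, chr1:36185819-36235579, minus strand) was measured at 41.0 and 40.5 CPM in the untreated libraries, 34.9 and 34.5 in the GPNA libraries and 24.9 and 22.8 in the BenSer libraries. Each treated group lay below the control without overlap, and the BenSer libraries lay below the GPNA libraries. Its log2 difference was -0.75 (-0.84 to -0.65) with BenSer and -0.23 (-0.32 to -0.13) with GPNA, or 58.5% and 85.2% of the control CPM. For ATRIP (ENSG00000164053, chr3:48488114-48509044, plus strand), the values were 11.8 and 9.84 CPM in the untreated libraries, 8.57 and 9.86 in the GPNA libraries and 7.02 and 6.45 in the BenSer libraries. The BenSer libraries were lowest, while the control libraries differed by 0.24 on the log2 scale, the widest gap of any repair gene in the control, and the GPNA libraries reached into their range. ATRIP differed by -0.61 (-0.78 to -0.44) with BenSer and -0.21 (-0.38 to -0.044) with GPNA. Exons of TREX1 overlap ATRIP on the same strand, so reads there cannot be assigned to ATRIP with certainty. With BenSer, ATRIP was short of 1.5-fold without control library 1 (-0.49), without BenSer library 2 (-0.56), and with TMM or DESeq2 scaling (both -0.57).

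ATM (ENSG00000149311, chr11:108093771-108239829, plus strand) went the other way, at 68.2 and 67.6 CPM in the untreated libraries, 76.9 and 73.4 in the GPNA libraries and 69.6 and 70.6 in the BenSer libraries. Both treated groups lay above the control without overlap, by 0.14 (0.078 to 0.21) with GPNA and by 0.045 (-0.020 to 0.11) with BenSer, the second of which does not exceed counting error. Of the remaining checkpoint genes, ATR, CHEK1, CHEK2 and TOPBP1 had log2 differences of -0.33 to -0.23 with BenSer, all with intervals below 0, and of -0.12 to 0.047 with GPNA, where the interval of TOPBP1 lay below 0 and the others included 0.

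The genes for holding and trimming broken ends are MRE11A, RAD50 and NBN, the subunits of the MRN complex that binds and first cuts the ends, RBBP8 (CtIP), which starts resection with MRN, and the nucleases EXO1 and DNA2, which extend it. With BenSer 5 of these 6 lay below the control with no overlap (37.5% of all genes), and RAD50 overlapped it. The median was -0.32. With GPNA the median was -0.078, 4 genes lay below (34.4% of all genes) and RAD50 and NBN above (22.4%). Of genes with at least 50 reads, 42.3% lay below. With TMM factors MRE11A, RBBP8 and EXO1 overlapped the control, and of the genes below only DNA2 stayed there.

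EXO1 (ENSG00000174371, chr1:242011269-242058450, plus strand) had the largest difference of the group, with values of 40.2 and 37.9 CPM in the untreated libraries, 35.6 and 37.2 in the GPNA libraries and 27.5 and 27.0 in the BenSer libraries. In CPM as deposited, all 3 groups were separate, in the order control, GPNA, BenSer. With TMM factors the GPNA libraries overlapped the control. The log2 difference was -0.50 (-0.59 to -0.41) with BenSer and -0.098 (-0.19 to -0.0065) with GPNA, and the other long-range nuclease, DNA2, had -0.46 and -0.12.

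Of the 3 subunits of MRN, MRE11A and NBN lay below the control with BenSer and RAD50 did not. RAD50 (ENSG00000113522, chr5:131891711-131982041, plus strand) stood at 10.1 and 9.84 CPM in the untreated libraries, 10.2 and 10.2 in the GPNA libraries and 9.23 and 10.5 in the BenSer libraries, so that the BenSer libraries lay on both sides of the control. Its difference was -0.014 (-0.17 to 0.15) with BenSer and 0.030 (-0.14 to 0.20) with GPNA. NBN (ENSG00000104320, chr8:90936743-91015456, minus strand), the subunit that recruits ATM, gave 88.9 and 86.6 CPM in the untreated libraries, 90.2 and 93.0 in the GPNA libraries and 71.5 and 69.5 in the BenSer libraries. The GPNA libraries were the highest and the BenSer libraries the lowest, with differences of 0.062 (0.0012 to 0.12) and -0.31 (-0.37 to -0.25), and exons of NBN overlap OSGIN2 on the opposite strand. MRE11A, the nuclease, had -0.27 with BenSer and -0.10 with GPNA, and RBBP8 had -0.33 and -0.059.

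BLM is the helicase that, with TOP3A, RMI1 and RMI2, dissolves joined recombination intermediates without crossing over. All 3 of BLM, RMI1 and RMI2 lay below the control with BenSer (37.5% of all genes), with a median of -0.54. BLM (ENSG00000197299, chr15:91260577-91359396, plus strand) was at 13.0 and 14.3 CPM in the untreated libraries, 12.1 and 12.2 in the GPNA libraries and 8.14 and 8.52 in the BenSer libraries, with the 3 groups in separate ranges. It differed by -0.65 (-0.80 to -0.50) with BenSer, or -0.581, just short of 1.5-fold, without control library 2, and by -0.15 (-0.30 to -0.00054) with GPNA. RMI1 (ENSG00000178966, chr9:86595713-86618989, plus strand) had the fewest reads of the 38 genes in the control, 133, and stood at 2.88 and 2.86 CPM in the untreated libraries, 3.10 and 2.75 in the GPNA libraries and 2.21 and 2.19 in the BenSer libraries. The BenSer libraries were lowest and the GPNA libraries lay on both sides of the control, with differences of -0.28 (-0.53 to -0.023) and 0.020 (-0.24 to 0.28). RMI2 had the lowest value of all repair genes with GPNA, at -0.27, and -0.54 with BenSer.

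The BRCA genes prepare the trimmed ends for pairing with the sister. BRCA1 and BARD1 form a ubiquitin ligase, PALB2 joins BRCA1 to BRCA2, BRCA2 acts on the single strands, and BRIP1 (FANCJ) is a helicase that binds BRCA1. All 5 lay below the control with BenSer with no overlap (37.5% of all genes) and with intervals below 0 (25.8%). Their median was -0.50. With GPNA the median was -0.017, with 2 genes below and BRCA2 above (34.4% and 22.4% of all genes). Those GPNA counts are near the shares of all genes.

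BRIP1 (ENSG00000136492, chr17:59756500-59940920, minus strand) was measured at 36.0 and 37.0 CPM in the untreated libraries, 32.6 and 33.4 in the GPNA libraries and 23.3 and 22.5 in the BenSer libraries. Its 3 groups did not overlap and BenSer was lowest, with differences of -0.65 (-0.75 to -0.55) with BenSer and -0.14 (-0.24 to -0.048) with GPNA. BRCA2 (ENSG00000139618, chr13:32889223-32974405, plus strand) stood at 34.0 and 34.4 CPM in the untreated libraries, 36.4 and 37.0 in the GPNA libraries and 24.7 and 23.2 in the BenSer libraries. The GPNA libraries were above both control libraries and the BenSer libraries below them. The difference was 0.10 (0.0052 to 0.19) with GPNA and -0.50 (-0.59 to -0.40) with BenSer. At the small end of the group, PALB2 (ENSG00000083093, chr16:23614481-23652642, minus strand) gave 11.9 and 12.0 CPM in the untreated libraries, 11.2 and 11.6 in the GPNA libraries and 10.0 and 9.99 in the BenSer libraries. The ranges were separate but close, and with TMM factors the GPNA libraries overlapped the control. The difference was -0.24 (-0.39 to -0.085) with BenSer and -0.065 (-0.22 to 0.092) with GPNA. BRCA1 had -0.56 with BenSer and its partner BARD1 -0.34, and both had -0.017 with GPNA, with intervals that included 0, and turned to 0.022 and 0.021 with TMM scaling.

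The strand exchange genes are RAD51B, RAD51C, XRCC2 and XRCC3, which work in shared complexes, RAD51AP1, which stimulates the exchange, and RAD54L and RAD54B, which are DNA translocases. With BenSer 6 of the 7 lay below the control with no overlap (37.5% of all genes), and RAD51B overlapped it. The median was -0.35. With GPNA the median was -0.11, 4 genes lay below (34.4% of all genes) and RAD51B above (22.4%).

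RAD51AP1 (ENSG00000111247, chr12:4647964-4669213, plus strand) was at 8.91 and 8.19 CPM in the untreated libraries, 9.38 and 8.05 in the GPNA libraries and 6.06 and 5.76 in the BenSer libraries. The BenSer libraries lay lowest, and the GPNA libraries spread over the control range, differing from each other by 0.20 on the log2 scale. Its difference was -0.47 (-0.65 to -0.29) with BenSer and 0.025 (-0.15 to 0.20) with GPNA. RAD51B (ENSG00000182185, chr14:68286496-69196935, plus strand) gave 4.69 and 4.12 CPM in the untreated libraries, 5.12 and 5.46 in the GPNA libraries and 4.63 and 3.85 in the BenSer libraries. Both GPNA libraries were above the control, but the interval of 0.22 (-0.0034 to 0.44) reached 0 at 204 control reads, and the difference with BenSer was -0.044 (-0.26 to 0.17).

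Of the genes in shared complexes, XRCC2 and XRCC3 had close values with both compounds. XRCC2 had -0.35 with BenSer and -0.26 with GPNA, and XRCC3 -0.24 and -0.20, all with intervals below 0. Between the compounds the interval of the difference, BenSer minus GPNA, was -0.19 to 0.0059 for XRCC2 and -0.16 to 0.075 for XRCC3, so in neither gene was a difference between the compounds beyond counting error. RAD51C had -0.26 with BenSer and -0.11 with GPNA, RAD54L -0.40 and -0.24, and RAD54B -0.42 and -0.041.

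The Fanconi core complex is the ubiquitin ligase of the pathway, with FANCL as its catalytic subunit, FANCM as the translocase that brings it to DNA, and FANCE as the subunit that contacts FANCD2. It had the smallest median of the role groups with BenSer, -0.20, and with GPNA the median was -0.17. With BenSer the values ran from -0.89 to -0.12. Of the 8 genes, 6 lay below the control (37.5% of all genes), while FANCC and FANCF overlapped it. With GPNA 5 lay below (34.4% of all genes), of which FANCM overlapped the control with TMM factors.

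FANCE (ENSG00000112039, chr6:35420115-35434881, plus strand) had the largest difference of all 38 genes. It was measured at 6.50 and 6.98 CPM in the untreated libraries, 5.04 and 5.85 in the GPNA libraries and 2.98 and 3.38 in the BenSer libraries. The 3 groups did not overlap, and the higher BenSer library was below the lower GPNA library. The log2 difference was -0.89 (-1.10 to -0.68) with BenSer and -0.26 (-0.47 to -0.060) with GPNA, and in CPM the gene stood at 47.2% and 80.8% of the control. By contrast FANCF (ENSG00000183161, chr11:22644079-22647369, minus strand), an adaptor within the complex, gave 4.09 and 3.51 CPM in the untreated libraries, 3.53 and 3.10 in the GPNA libraries and 3.08 and 3.76 in the BenSer libraries, and the libraries of the 3 groups overlapped. It differed by -0.12 (-0.35 to 0.11) with BenSer and -0.15 (-0.40 to 0.090) with GPNA. FANCC had -0.19 with BenSer and -0.24 with GPNA, and its BenSer libraries differed from each other by 0.25, the widest gap of any repair gene with BenSer. FANCA had -0.57 and -0.26, FANCB -0.41 and -0.18, FANCL -0.21 and -0.056, FANCG -0.20 and 0.00067, and FANCM -0.13 and -0.094.

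FANCD2 and FANCI form the clamp that the core complex ubiquitinates at a crosslink. Both lay below the control with each compound (37.5% of all genes with BenSer and 34.4% with GPNA). FANCD2 (ENSG00000144554, chr3:10068054-10143616, plus strand) was at 38.6 and 36.1 CPM in the untreated libraries, 35.3 and 34.6 in the GPNA libraries and 24.5 and 25.5 in the BenSer libraries. FANCI (ENSG00000140525, chr15:89787176-89860492, plus strand) was at 42.5 and 43.0 CPM in the untreated libraries, 39.2 and 39.0 in the GPNA libraries and 29.2 and 29.2 in the BenSer libraries. In both genes the 3 groups were separate, with BenSer lowest. With TMM factors the GPNA and control libraries of FANCD2 overlapped. FANCD2 differed by -0.56 (-0.66 to -0.47) with BenSer and -0.095 (-0.19 to -0.0019) with GPNA, and FANCI by -0.54 (-0.62 to -0.45) and -0.13 (-0.21 to -0.039). Exons of FANCD2 overlap FANCD2OS, and exons of FANCI overlap POLG, on the opposite strand.

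Taken directly against each other, the BenSer libraries (10 mM) were lower than the GPNA libraries (1 mM) in 36 of the 38 genes by sign, where 52.1% of the 19056 genes tested were. In 32 both BenSer libraries lay below both GPNA libraries (33.6% of all genes), and in 30 the counting interval was below 0 (20.7% of all genes). The median was -0.27 over the repair genes and -0.0093 over all genes. At least 1.5-fold lower were FANCE at -0.62 (-0.84 to -0.41) and BRCA2 at -0.60 (-0.69 to -0.50), against 0.813% of all genes, and 0 were as much higher (1.05% of all genes). Among genes with at least 50 reads the shares lower were 48.8% by sign, 35.7% without overlap, 26.6% by the interval and 1.11% at 1.5-fold. FANCE stood at -0.53 without GPNA library 2 and -0.56 without BenSer library 1, and BRCA2 at -0.58 and -0.55 without GPNA or BenSer library 2, all short of 1.5-fold. Among the role groups the BRCA genes had the lowest median in this comparison, -0.51, and the strand exchange and Fanconi core genes the nearest to 0, -0.17 and -0.18. The genes whose BenSer and GPNA libraries overlapped were RAD50, XRCC2, XRCC3, FANCC, FANCF and FANCM.

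**Figure D3:**
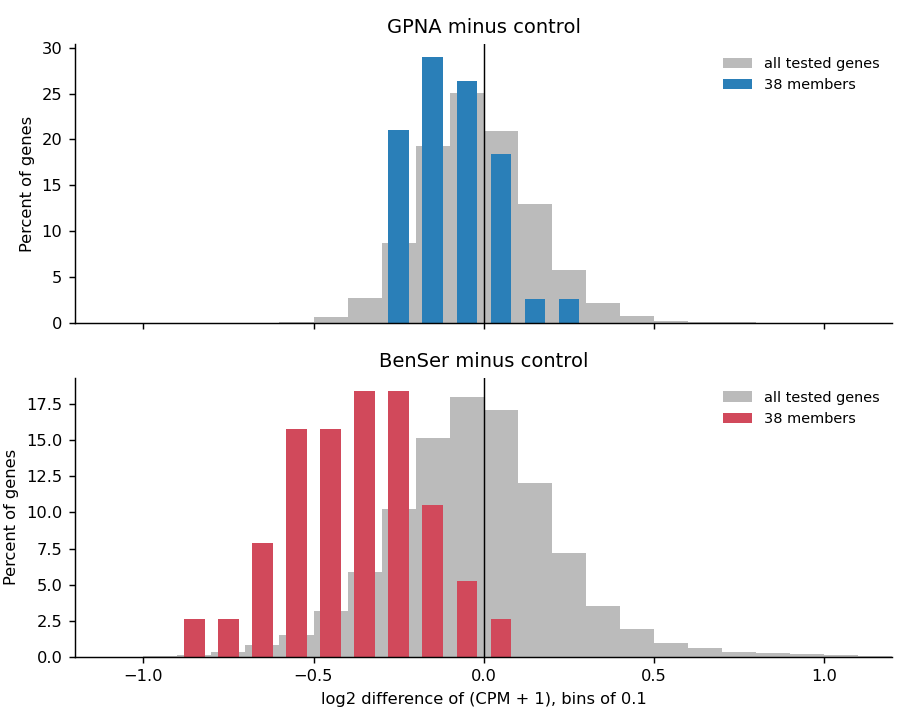
Share of genes, in percent, by log2 difference of mean CPM plus 1 from the control in bins of 0.1, with GPNA in the upper and BenSer in the lower panel, grey for all genes tested and coloured for the 38 repair genes. In both panels the coloured bars lie within the range of the grey ones and are shifted to lower values, more so with BenSer. The medians of the repair genes are -0.10 with GPNA and -0.34 with BenSer, against -0.028 for all genes with each compound. The few genes beyond the ends of the axis are not drawn.

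Of the repair genes, CLSPN, BLM, BRIP1, EXO1 and RAD51AP1 also belong to a list of S phase genes in common use. Without these 5, the median of the other 33 was -0.31 with BenSer and -0.095 with GPNA. With BenSer 28 lay below the control without overlap (37.5% of all genes). FANCE and ATRIP were 1.5-fold lower (1.58% of all genes), ATRIP not under every alternative. The MCM helicase genes license and unwind replication origins and are known to follow the cell cycle. With both compounds 6 of 6 lay below the control without overlap (37.5% of all genes with BenSer and 34.4% with GPNA). Their medians were -0.55 with BenSer and -0.19 with GPNA. MCM2 had the largest difference with BenSer, -0.68, and MCM3 the smallest, -0.43. The part of cell cycle stage in the values of the repair genes was not tested.

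A wider list of 53 other recombination and crosslink repair genes showed the same sign of the median at a smaller size. With BenSer 42 were lower by sign (55.4% of all genes), and the median was -0.19. Without overlap 37 lay below the control and 3 above it (37.5% and 28.5% of all genes). TIPIN, a fork protection factor that acts with CLSPN, was at least 1.5-fold lower at -0.75, as was PARPBP, an inhibitor of recombination, at -0.64. Of all genes, 1.58% were at least that much lower. The smallest difference was that of ERCC4, a crosslink nuclease, at -0.0082. With GPNA 35 were lower (56.7% of all genes), 27 of them without overlap (34.4%), and the median was -0.071. Of 11 genes for end joining, the repair pathway that needs no sister chromatid, 10 were in the tables used here. All 10 were lower with BenSer by sign (55.4% of all genes) and 6 without overlap (37.5%), with a median of -0.28. The values ran from -0.43 for PRKDC, the catalytic subunit of DNA-PK, to -0.0047 for LIG4, the ligase. With GPNA 6 were lower and 4 higher, with a median of -0.077. Of all genes 56.7% were lower with GPNA, so this split is near the background.

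**Figure D4:**
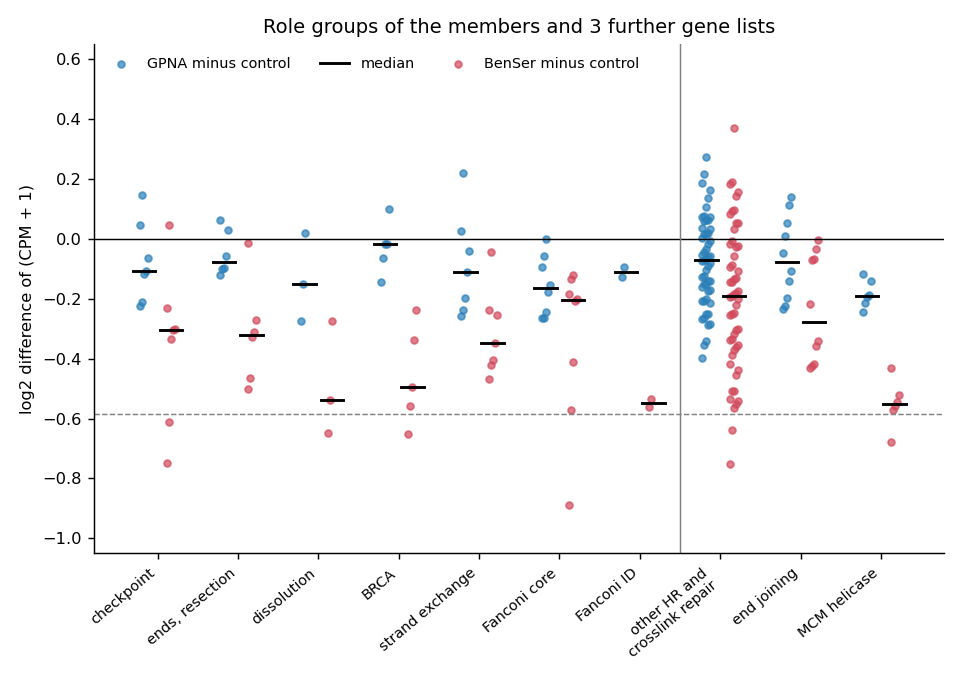
Log2 difference of mean CPM plus 1 from the control for each gene, blue for GPNA and red for BenSer, by role group on the left of the vertical line and for the further lists on the right, with black bars for medians and a dashed line at 1.5-fold lower. Over the role groups the medians run from -0.55 in the Fanconi ID pair to -0.20 in the Fanconi core with BenSer, and from -0.17 in the Fanconi core to -0.017 in the BRCA group with GPNA.

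How reads were counted limits some of these values. Exons of CHEK1 and RAD54B overlap STT3A and FSBP on the same strand, as those of ATRIP do TREX1. In 10 repair genes (ATM, CHEK2, NBN, XRCC3, RAD54L, FANCA, FANCC, FANCL, FANCD2 and FANCI) exons overlap a coding gene on the opposite strand, and whether the counting used strand is not given in the sources used here. Pseudogenes named after them exist for CHEK2, MRE11A, RBBP8, BRCA1, RAD51AP1 and FANCD2, and reads could be split between copies. The positions given with the genes are from the GENCODE annotation on GRCh37.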

How the data were processed

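Total RNA from PC-3 cells was sequenced by the authors as stranded paired-end libraries, which they mapped to hg19/GRCh37.p13 with TopHat2 and counted per gene. The submitters' processing notes also name Bowtie2, HTSeq 0.6.2p2 and DESeq. The values deposited by the authors are named as counts but are CPM. All of them (100%) were whole reads over the library total within a tolerance of 0.01, so reads were recovered. The doses come from the study's text and not from the sample labels. The 6 further value columns of the tables (8 entries) match no label and were not used, nor were the authors' own fold changes, p-values and false discovery rates.

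Libraries 1 and 2 of a group were compared by a chi-square of their reads over genes. They differed by slightly more than sampling noise, were counted as 1 sample, and their mean CPM was used. The tables hold 4 value columns for each group, the number of replicates in the study's methods, while the labels give 2 samples. Neither names separate cultures, so the spread between libraries may be technical. Differences are on the log2 scale of mean CPM plus a pseudocount of 1, which understates the change of low genes. Tested genes averaged 5 reads or more in 1 of the groups compared. Intervals (95%) are Clopper-Pearson on merged reads.

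The repair genes, the further lists and the tests were chosen with earlier results of these data known. Values in every library are given for genes at least 1.5-fold different from the control, for the genes with the largest and smallest absolute difference with BenSer in each role group among those with at least 100 control reads, and for genes with opposite directions whose libraries do not overlap the control. From the further lists the extremes and the 1.5-fold genes are named, and 3 more after their values were seen, and some listed genes are not reported here.

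Alternatives were other pseudocounts, filters, fold thresholds and scalings (TMM, DESeq2 1.42.0 size factors, the total of the listed genes), single libraries left out, a replicate block, the list without S phase genes, and limma 3.58.1 and edgeR 4.0.16 (quasi-likelihood, on recovered reads, R 4.3.3) with libraries entered as samples, at an adjusted p (Benjamini-Hochberg) under 0.05. edgeR on recovered reads called 2318 genes lower and 946 higher with GPNA and 3992 and 2821 with BenSer, and with TMM factors 1553 and 1300, and 3331 and 3472. Those tests compare libraries and not treatments. The split under other scalings, edgeR with TMM, and counts with no pseudocount were added after seeing the data. Scripts were tested on simulated data. Positions are from GENCODE v44 lifted to GRCh37. Python 3.11.15 was used with scipy 1.17.1, pandas 2.3.3, numpy 2.4.6 and matplotlib 3.10.9.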

Additional observations from a re-analysis of the deposited data

How the results depend on the processing

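The medians of the repair genes stayed below 0 in all 3 comparisons under the alternatives run, and their sizes moved. With GPNA the median log2 difference of -0.10 was -0.062 with TMM scaling, -0.063 with DESeq2 size factors and -0.071 with the total of the listed genes, and -0.10 to -0.069 with single libraries left out, where leaving out control library 1 gave -0.069. With BenSer the median of -0.34 was -0.29 with TMM and with DESeq2 scaling, -0.31 without the S phase genes, and -0.35 to -0.33 with single libraries left out. Between BenSer and GPNA the median of -0.27 was -0.32 and -0.29 with pseudocounts of 0.1 and 0.5, -0.23 without the S phase genes, and -0.30 to -0.25 with single libraries left out. The scalings moved the median of all genes by at most 0.032. The genes at least 1.5-fold lower with BenSer numbered 5, but 2 without the S phase genes, 21 at a threshold of 20% lower on the scale of CPM plus 1 (10.3% of all genes) and 0 at 2-fold (0.0474%), 7 with pseudocounts of 0.1 and 0.5, and 5 to 7 with single libraries left out. Between BenSer and GPNA the count of 2 was 15 at 20% lower (7.08% of all genes) and 0 at 2-fold (0.0525%), and 1 to 2 with single libraries left out. With libraries entered as samples, limma called 7, 30 and 25 of the repair genes lower with GPNA, with BenSer, and with BenSer against GPNA, where it called 12.6%, 20.9% and 16.4% of all genes lower. edgeR called 8, 30 and 27 (12.3%, 21.0% and 16.3% of all genes), and edgeR with TMM scaling 3, 29 and 25 (8.25%, 17.6% and 15.9%). Called higher with GPNA was 1 repair gene by limma and by edgeR (5.24% and 5.02% of all genes), and 3 by edgeR with TMM (6.90%), which also called 1 higher with BenSer (18.3%). With GPNA and TMM, edgeR thus called as many repair genes higher as lower, with both shares near those of all genes. Of 1467 values of single repair genes under alternatives, 27 had another sign than the value given, in 14 combinations of gene and comparison and all of a size of at most 0.082. With GPNA these were ATR, BARD1, BRCA1, FANCG, FANCL, RAD51AP1, RAD54B and RMI1, with BenSer RAD50 and RAD51B, and between the compounds FANCC, FANCF, RAD50 and XRCC3.

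The replicate numbers did not pair the libraries: deviations of libraries with the same number correlated at 0.012, 0.015 and 0.040 between the groups, over 11469 genes. With the replicate number as a block, the medians were -0.10 with GPNA, -0.33 with BenSer and -0.27 between them, limma called 7, 30 and 24, edgeR 8, 29 and 27, and edgeR with TMM 3, 29 and 25 of the repair genes lower, with 6.42% to 21.8% of all genes called lower by these fits. The read depth limits the genes of low level most, since RMI1, FANCF and RAD51B had 133, 176 and 204 control reads.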

Other observations

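Among the 53 further recombination and crosslink repair genes, 3 lay above the control with BenSer without overlap, where 28.5% of all genes did. They were RAD9A, a subunit of the checkpoint clamp, at 0.37, WDR48, a partner of the deubiquitinase USP1, at 0.19, and RAD17, which loads the clamp, at 0.14. They were named after their values were seen, and with GPNA they stood at 0.19, -0.0062 and 0.16.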
